A study of Homo sapiens with 12 samples.

Results

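N6-methyladenosine (m6A) regions that touch the 5' untranslated region (5' UTR) of messenger RNA were taken from MeRIP-seq of trastuzumab-resistant and trastuzumab-sensitive BT474 cells. A listed peak or region was included where the authors' own annotation named the 5' UTR and did not name the 3' UTR, and mitochondrial rows were to be left out, of which there were 0. In the peak lists of the 6 pull-down libraries, 13678 of 178818 listed peaks met this rule. They formed 2088 merged regions, joined over shared exonic bases on a strand, on 1823 of the 8340 genes with any nuclear peak. In the authors' comparison of the lines, 2076 of 17301 regions met it, on 1050 genes.

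BT474 is an established luminal breast cancer line with amplified ERBB2, the receptor that the antibody trastuzumab binds. The resistant cells are a derivative of it, labelled BT474.TtzmR, and all cells were grown in DMEM with 10% serum. The labels state neither how resistance was selected nor whether the derivative is 1 clone, nor whether the drug was present before harvest. Each line had 3 libraries of RNA pulled down with an anti-m6A antibody and 3 input libraries without pull-down, and values of the input libraries alone were not analysed here. The labels do not tell whether replicates were separate cultures, so the p-values reflect spread among libraries that can be technical.

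In mammalian mRNA, m6A is placed by the METTL3 and METTL14 methyltransferase within a short consensus centred on GGAC and lies most densely near stop codons and in long exons. m6A in the 5' UTR is less common and has been studied for its part in translation that does not rely on the cap-binding factor eIF4E, and in the response to heat shock. Antibodies against m6A also bind m6Am, a modification of the first transcribed base when that base is an adenosine, so a peak at the very start of a transcript can hold either mark.

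The bases around the annotated start are shown for the 10 genes with the highest median 5' UTR fold enrichment among those with such a peak in all 6 libraries, since the first base bears on that ambiguity. Each line runs 5' to 3', from 10 bases before the start to 20 bases of transcript, from RefSeq on GRCh38.p14. Capitals mark the first transcribed base and any GGAC in the stretch shown.
AES: cccagggcccTggagcagcggggcctggca
PIP4K2B: ggtgggaggtAacgGGACgggcgcgaccat
ARID1A: tccctccctcCtcctttctccggcagcaga
GGPS1: tcccgtctacGacaatgacgccatttctgt
AMIGO3: aactcgcttgGagagggctagcgaagccga
PTP4A2: ggagctggttCcggctgcgcgcgcagcggt
ASXL1: ctcactcttcAcacacactcacacacaccc
PCBP1: cgccccgcccAgaccgccgaggctgccgcc
ZFAND3: tctccgccccCtccccgtctccgcaggccg
GNB2: cagccgcgtcActggcgggcgggatccctc
PIP4K2B, ASXL1, PCBP1 and GNB2 had A as the annotated first base, and AES, listed in RefSeq as TLE5, had T. PIP4K2B alone among these genes held GGAC within its first 50 bases, at base 5 of the transcript. The annotated start is that of 1 RefSeq transcript and need not be the start used in these cells, and the files' own peaks can lie downstream of it.

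Over whole groups of genes, the letters at the annotated start differed little. The first base was A in 48.8% of the 365 matched genes with a 5' UTR peak in all 6 libraries (80.8% of 452 matched). It was A in 45.0% of 5285 matched genes whose peaks all lay elsewhere (81.1% of 6517 matched) and in 50.7% of all 15843 protein-coding genes of the table. A after a C at the preceding base stood in 39.5%, 33.5% and 36.9% of these groups. The letters GGAC on the transcribed strand were present in the first 50 bases of 19.7% of genes with a 5' UTR peak in all 6 libraries, 19.4% of those with peaks elsewhere and 19.7% of all genes. The GGAC search used the transcribed strand only, since a motif in RNA has no second strand. For genes with a region called higher in the comparison below, 77.8% could be matched, under the 80% needed, so their shares are not given.

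Marker genes were checked against the labelled cells. Of 10 luminal and ERBB2-amplicon marker genes, 5 had a peak of any class in all 6 libraries, ERBB2, KRT8, KRT18, KRT19 and FOXA1. Of the 10, 0 had none, though GRB7 and ESR1 had none in a sensitive library, and ESR1 had one in 1 resistant library. Of 7 markers of other cell types, 5 had no peak in any library, COL1A1 had one in all 6, and VIM had one in 1 library of each line. Total listed peaks ran from 26028 to 32638 per library. Read depth is not in the files, and the number of peaks a caller lists depends on it.

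Resistant cells had more peaks touching the 5' UTR than sensitive cells, and the excess was about in proportion to their longer lists. The 3 resistant libraries listed 2736, 2231 and 2543 such peaks and the 3 sensitive libraries 2144, 2113 and 1911. Every resistant library lay above every sensitive one, though resistant 2, at 2231, stood close to sensitive 1, at 2144. The means were 2503 ± 255 and 2056 ± 127 (SD, n = 3 each), a difference of 21.8% (exact permutation test, two-sided, p = 0.1, the smallest this design allows). Peaks of all classes differed by 14.9%. Genes with a 5' UTR peak numbered 1076 ± 117 in resistant and 900 ± 56.0 in sensitive libraries (SD, n = 3 each). As a share of all listed peaks, 5' UTR peaks made up 7.84% ± 0.57 and 7.41% ± 0.09 (SD, n = 3 each), a difference within the spread (exact permutation test, two-sided, p = 0.4), with resistant 2 the lowest of all 6 at 7.25%. With the same number of top peaks taken from each library, 26028 by deposited p, the difference in number came to 5.71% (exact permutation test, two-sided, p = 0.4).

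**Figure D1:**
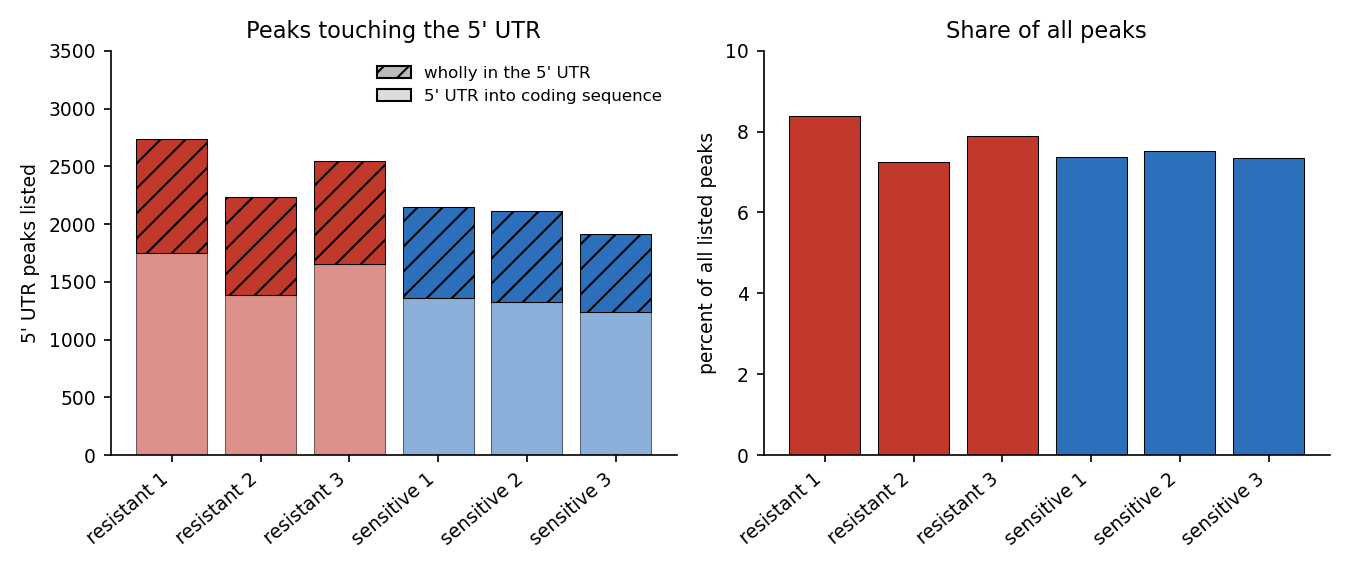
Peaks touching the 5' UTR in each library, as numbers listed (left, split into peaks wholly in the 5' UTR and peaks that run on into coding sequence) and as a percent of all listed peaks (right). Red bars are resistant and blue bars sensitive libraries, each bar 1 library. The numbers do not overlap between the lines, whereas the share of resistant 2, at 7.25%, is below all sensitive libraries.

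Most 5' UTR peaks were not confined to it. Peaks wholly inside the 5' UTR made up 35.1% to 38.0% of the members per library, and the rest ran across the start codon into coding sequence. Peaks that crossed the start codon were mostly spliced: 68.3% to 73.5% of them spanned more than 1 exon, against 24.3% to 32% of those inside the 5' UTR and 0.705% to 0.905% of 3' UTR peaks. The annotation is by isoform, and 28.7% to 33.2% of the 5' UTR peaks shared bases with a peak listed as coding in another isoform of the same list. A further overlap with rows of the stop codon or 3' UTR touched 3.73% to 4.76%. Between 49.2% and 57.4% of genes with a 5' UTR peak also had a peak at the stop codon or in the 3' UTR, and 20.5% to 24.9% had no peak of any other class.

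Peaks wholly inside the 5' UTR were the shortest class and had the highest median fold enrichment, the authors' ratio for each peak. Their median fold within a library lay between 3.94 and 4.96, against 3.19 to 3.40 for coding peaks, 3.73 to 4.13 for peaks over the stop codon and 3.48 to 3.75 for 3' UTR peaks. It was above that of coding peaks in 6 of 6 libraries, by a mean ratio of 1.30, of stop codon peaks by 1.11 and of 3' UTR peaks by 1.20 (exact sign-flip permutation test over libraries, two-sided, p = 0.03125 each, adjusted p = 0.0352 over 27 comparisons). p = 0.03125 is the smallest that 6 libraries allow. Taking inside and crossing peaks together, the ratio to coding peaks was 1.20 in the mean and above 1 in 6 of 6 libraries (exact sign-flip permutation test, p = 0.03125, adjusted p = 0.0352). Against 3' UTR peaks the joint ratio was 1.11, also in 6 of 6 (exact sign-flip permutation test, p = 0.03125, adjusted p = 0.0352). That excess over the 3' UTR was lost when means of log2 fold replaced medians (log2 difference 0.029, exact sign-flip permutation test, p = 0.594) and when only peaks with a deposited p below 1e-05 were kept (0.066, exact sign-flip permutation test, p = 0.125). Against stop codon peaks it was 1.03, in 5 of 6 libraries (exact sign-flip permutation test, p = 0.09375, adjusted p = 0.101).

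The short peaks inside the 5' UTR also had the weakest deposited p-values. Their median exonic length was 121 to 150 bases, against 210 to 238 for coding, 357 to 388 for stop codon and 180 to 181 for 3' UTR peaks, and it was lower than each in 6 of 6 libraries (exact sign-flip permutation test, p = 0.03125 each, adjusted p = 0.0352). Peaks crossing the start codon were longer, at 290 to 301 bases. The median deposited p of inside peaks lay between 4.68e-05 and 9.02e-05 and that of crossing peaks between 6.31e-13 and 2.51e-11. So high folds inside the 5' UTR went with short peaks and weak p-values, and whether length or the number of reads sets the fold was not tested. The transcripts that carried 5' UTR peaks, inside and crossing together, were shorter than those with coding peaks, with a median RNA length of 2132 to 2288 bases against 3424 to 3543 for coding peaks, lower in 6 of 6 libraries (exact sign-flip permutation test, p = 0.03125, adjusted p = 0.0352). Transcripts with stop codon peaks, at 2369 to 2494 bases, were nearer, by a mean ratio of 0.904, and those with peaks wholly inside the 5' UTR were longer than these, by 1.11 in 6 of 6 libraries (exact sign-flip permutation test, p = 0.03125, adjusted p = 0.0352).

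**Figure D2:**
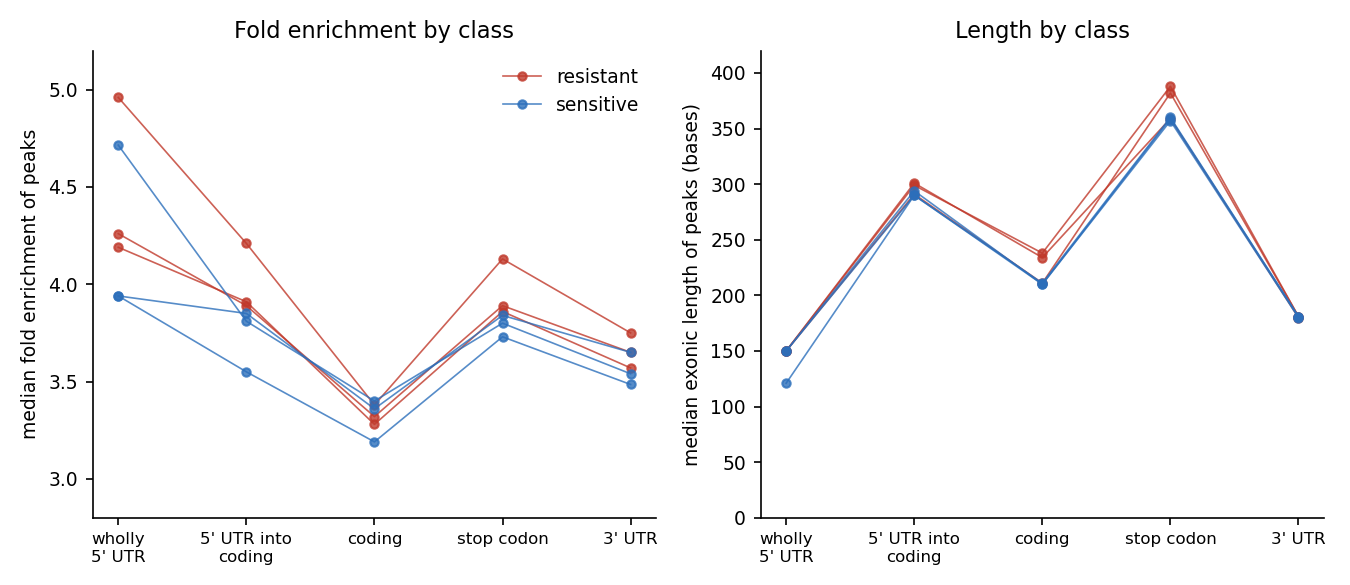
Median fold enrichment (left, axis from 2.8) and median exonic length in bases (right) of the peaks of each class, with 1 line per library, red resistant and blue sensitive. Peaks wholly in the 5' UTR have median folds from 3.94 to 4.96 and lengths of 121 to 150 bases.

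Many peaks had the same fold as peaks of other genes. In each library, 65.4% to 73.0% of peaks inside the 5' UTR had a fold that also stood on 5' UTR peaks of at least 5 genes in that library. The most common value was 5.58 in resistant 2, on 39 genes, and 16.2 in resistant 3, on 35 genes. Among the recurring folds of resistant 2, 11.4% were whole multiples, up to 30, of 1.40 to within the third digit, and in the other libraries such a step lay between 1.16 and 1.48. What 1 step stands for is not given in the sources used here, and how often folds printed to 3 digits would recur by themselves was not tested. Different genes named below share values such as 16.2.

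Among genes with a 5' UTR peak in all 6 libraries, a condition that fixes their presence in both lines, the 10 with the highest median fold are described first. Folds of different libraries are set side by side here as the authors' values, without a test. AES, a corepressor of the Groucho family, had the highest median of these, with 153, 128 and 216 in the resistant and 118, 157 and 82.4 in the sensitive libraries. The lines overlapped. Its peak lay wholly in the 5' UTR, over 299 bases at chromosome 19, 3062257 to 3062555 on the minus strand in resistant 3, in the files' own coordinates, whose genome build is not named. PIP4K2B, a phosphoinositide kinase gene of the amplified stretch around ERBB2, had folds of 85.0, 265 and 273 in resistant and 24.1, 89.4 and 83.1 in sensitive libraries. Resistant 2 and 3 stood above the rest, and resistant 1 lay among the sensitive libraries. Its region in the authors' deposited table, across the start codon (chromosome 17, 36955561 to 36956158) had a fold of 1.79 (p = 1.58e-12), while its other region, outside the 5' UTR, stood at 1.06.

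The other genes of this selection have varied roles. ARID1A, a DNA-binding subunit of the SWI/SNF remodelling complex, had 35.8, 96.3 and 83.6 in resistant and 45.3, 53.2 and 39.2 in sensitive libraries, and these overlapped. ASXL1, which works with Polycomb proteins, had 48.2, 44.6 and 67.3 against 17.0, 23.7 and 29.7, with every resistant value above every sensitive one. The ASXL1 region of the authors' deposited table (chromosome 20, 30946245 to 30956849, in 4 exonic blocks) had a fold of 1.62 (p = 0.00741). PCBP1, an RNA-binding protein gene, had 45.5, 38.6 and 50.3 against 26.7, 32.5 and 19.4 and stood in no row of the comparison. GNB2, a G protein beta subunit, had 51.0, 53.0 and 22.3 against 26.9, 32.5 and 13.5, which overlapped, and 7 of its 10 rows were called higher. The phosphatase PTP4A2, the zinc finger gene ZFAND3 and the adhesion gene AMIGO3 lay between 18.4 and 98.7 with overlapping lines.

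GGPS1, which makes geranylgeranyl diphosphate for protein prenylation, went the other way. Its folds were 27.6, 20.9 and 29.0 in resistant and 150, 82.8 and 64.8 in sensitive libraries, with no overlap. The GGPS1 5' UTR region of the authors' deposited table (chromosome 1, 235492658 to 235505049, in 3 blocks) had a fold of 0.695 (p = 0.000112), just outside the authors' limit of 0.67. It passed that limit once folds were divided by the table's median.

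More 5' UTR regions were listed in a single library than in all of them. Of the 2088 merged regions, 463 (22.2%, 95% exact Clopper-Pearson interval 20.4 to 24.0) had a peak in all 6 libraries and 781 (37.4%, 35.3 to 39.5) in 1 library. The share in all 6 was 25.1% for coding, 35.9% for stop codon and 23.1% for 3' UTR regions, each merged within its class. Merged across classes, a different unit, 33.4% of 17245 regions were in all 6 and 29.5% in 1. These intervals cover counting error only, and no difference between classes was tested. Regions seen in all 6 libraries were longer, with a median of 321 bases against 105 for regions in 1 library. Their median fold was about the same, 4.51 against 4.96. The median of their smallest deposited p was 1.26e-24, against 0.000363. That smallest p is taken over all peaks of a region, which by itself favours a lower value for regions in more libraries. The share of merged regions that 2 libraries had in common, as a Jaccard index, was 0.544 to 0.549 within the resistant line. It was 0.515 to 0.535 within the sensitive line and 0.464 to 0.503 between lines. Regions of all classes showed a like gap, with 0.638 to 0.645, 0.630 to 0.632 and 0.576 to 0.607.

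Few regions were present throughout 1 line and absent from the other. A peak in at least 2 resistant and 0 sensitive libraries was found for 164 regions, and in at least 2 sensitive and 0 resistant for 64. They made up 16.0% of 1028 regions in at least 2 resistant libraries and 7.58% of 844 in at least 2 sensitive ones. Merged across classes, a different unit, these shares were 11.7% of 10155 and 5.12% of 8795. Within the coding, stop codon and 3' UTR classes they were 11.1% to 14.4% and 5.45% to 8.87%. At equal list lengths, with 26028 top peaks from each library, the 164 and 64 became 110 and 83. No background was taken for this or for leaving out libraries. Without resistant 1 the counts were 80 and 105, and without resistant 3 they were 86 and 97, so that the excess in resistant cells turned; a line with 2 libraries left needs both. The counts were 113 and 84 without resistant 2. Leaving out a sensitive library gave 208 to 235 and 29 to 31. In all 3 resistant and 0 sensitive libraries there were 54 regions (2.59%; 2.16% of regions of any class), and in all 3 sensitive and 0 resistant 13 (0.623%; 0.707% of regions of any class). These shares lie near the background. Of the 54, 13 overlapped a peak of some class in a sensitive library, and 41 lay on a gene with a peak there.

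**Figure D3:**
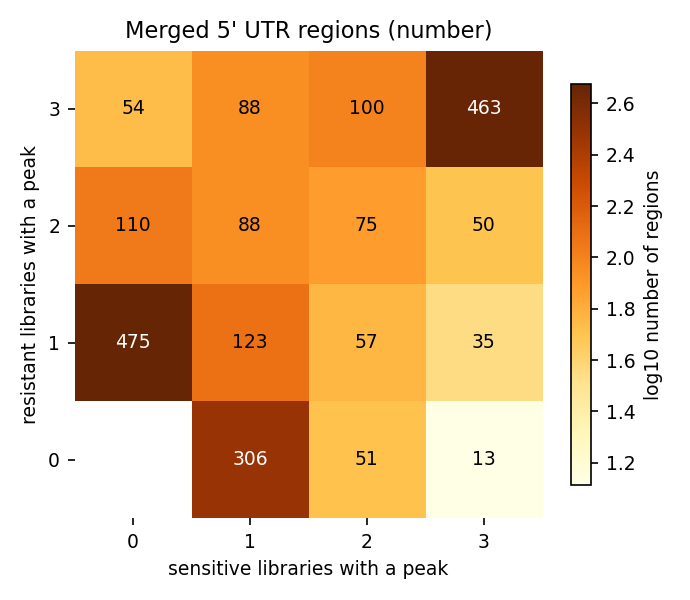
Number of merged 5' UTR regions by how many resistant (vertical) and sensitive (horizontal) libraries held a peak. The colour gives the log10 of the number printed in each square. The largest squares are 475 regions in 1 resistant library alone, 463 in all 6 and 306 in 1 sensitive library alone.

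By gene, 50 genes had a 5' UTR peak in every resistant library and in no sensitive one (2.74% of 1823), and 13 the reverse (0.713%). For other single classes these shares were 2.57% and 0.738% (stop codon), 2.14% and 0.596% (coding) and 2.00% and 1.17% (3' UTR) of the genes with such a peak. For peaks of any class, which asks that no peak at all be listed in the other line, they were 1.79% and 0.839% of 8340 genes. Leaving out 1 library in turn gave 72 to 100 and 19 to 30 genes. Only the 5' UTR peak was missing in many cases. Of the 50 genes, 36 had a peak of some class in a sensitive library, and of the 13, 10 had one in a resistant library. SCAF8, a regulator of RNA polymerase II termination, had folds of 15.2, 20.9 and 16.2 in the resistant libraries. FAM120A, an RNA-binding scaffold gene, had 23.4, 10.5 and 19.7, and PALLD, which makes an actin-bundling protein, 19.3, 27.9 and 12.8. All 3 were called higher in the authors' deposited table, at 2.31 for SCAF8 (p = 0.0224), 1.76 for FAM120A (p = 0.0468) and 2.31 for PALLD (p = 0.00794). After adjustment of the p, SCAF8 and FAM120A were no longer called, and after division by the median, FAM120A was not. The PALLD region compared overlapped a peak of some class in 2 sensitive libraries. Of the other 2 genes that the rule names, NIPAL2 was not called (fold 3.20, p = 0.207 in the authors' deposited table), and CAPN15, a calpain family gene, stood in no row. The folds of SCAF8 and CAPN15 in resistant 2 and 3 were the same values, 20.9 and 16.2.

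For the reverse case the rule names 5 of 13 genes with a 5' UTR peak in the sensitive line alone, by their highest minimum fold. ZNF580 had 5.66, 4.80 and 6.75, and ZNF513 8.49, 13.3 and 3.42, both zinc finger genes. TERF2, which protects telomere ends, had 2.83, 6.90 and 6.30, and PFDN2, a prefoldin subunit, 3.11, 3.70 and 2.62. In the authors' deposited table TERF2 had a fold of 0.634 (p = 0.116) and ZNF513 0.818 (p = 0.109), neither called, and ZNF580 stood at 1.5 (p = 0.155), on another region. The ZNF513 region compared overlapped a peak of some class in all 3 resistant libraries. CTC-349C3.1, a gene given by a clone name only, had 2.83, 9.85 and 6.30 and was called lower at 0.473 (p = 0.0186 in the authors' deposited table).

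The authors' comparison of the lines gives 1 fold, resistant over sensitive, and 1 p for each region. A region was called where p was below 0.05 and the fold at least 1.5 or at most 0.67, the rule that returns exactly the regions the authors list as higher or lower. In the authors' deposited table, 292 of the 2076 5' UTR regions were called higher (14.1%) and 44 lower (2.12%). Over all 17301 regions these shares were 9.88% and 1.75%. Merged, 171 and 26 of 1110 5' UTR regions were called (15.4% and 2.34%), against 11.1% and 2.00% of all merged regions. By gene, 162 of 1050 had a 5' UTR region called higher (15.4%) and 26 one called lower (2.48%). Of all 5553 genes, 14.2% and 2.76% had a call in a region of any class. The gene shares are not like for like, since a gene there counts by any of its regions and not by its 5' UTR regions alone.

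The whole table leaned towards resistant cells, and 5' UTR regions had a slightly higher median fold and a wider spread. The median fold of 5' UTR regions was 1.34 (log2 0.42) and that of all regions 1.25 (log2 0.32). A fold above 1 was no more common, at 74.5% of 5' UTR regions and 75.1% of the other regions. The first quartile of log2 fold was -0.114 for 5' UTR regions and 0.063 for all regions. The median was 1.24 for 5' UTR regions over a 5' UTR peak in all 6 libraries and 1.61 for those over none. Whether the medians differ was not tested. Regions wholly inside the 5' UTR had a median of 1.5, those crossing the start codon 1.29, coding regions 1.24, stop codon regions 1.21 and 3' UTR regions 1.29. After division by the table's median, 118 of 2076 5' UTR regions were called higher and 117 lower, an even split, where 86.9% of called 5' UTR regions had been higher before. Of all 17301 regions, 492 (2.84%) and 823 (4.76%) were then called higher and lower. After Benjamini-Hochberg adjustment of the deposited p over all regions, 195 of the 5' UTR regions were called higher and 18 lower, and of all regions 6.54% and 0.775% were. Inside the 5' UTR the folds were also the most spread, with quartiles of log2 fold at -0.24 and 0.99, and 26.6% had a deposited p below 0.05, against 54.5% of those crossing the start codon.

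**Figure D4:**
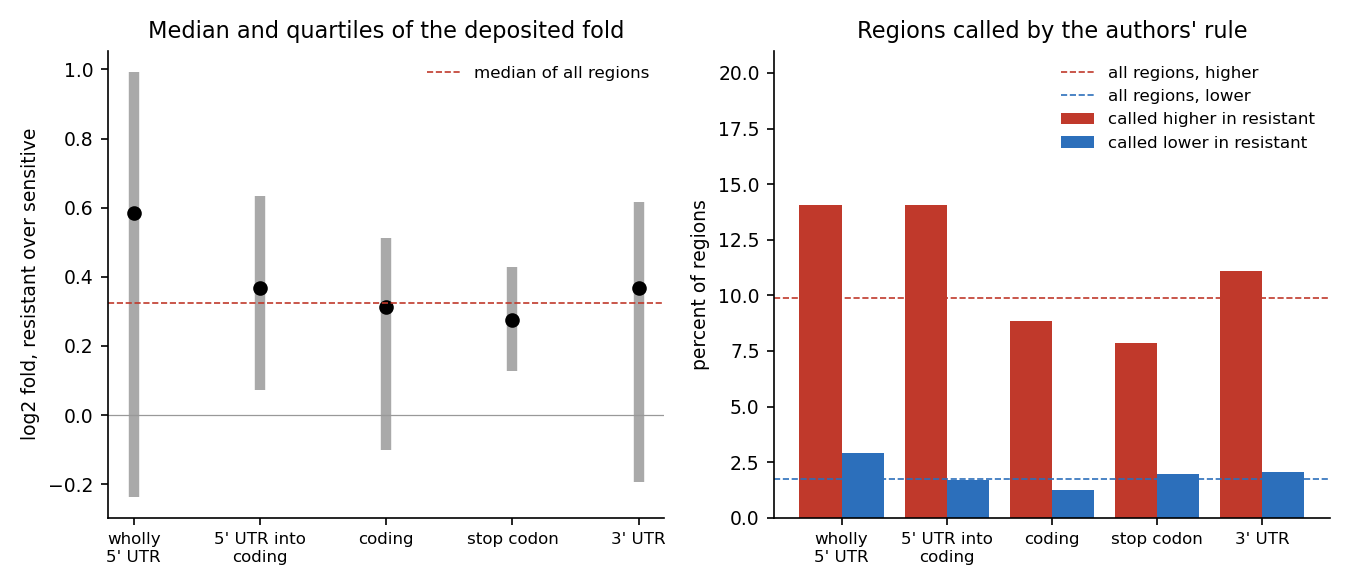
Left, median (points) and quartiles (bars) of the deposited log2 fold, resistant over sensitive, by class. Right, percent of regions called higher (red) or lower (blue) in resistant cells, with dashed lines for all regions. Regions wholly in the 5' UTR and regions crossing the start codon had nearly equal shares called higher, 101 of 719 and 191 of 1357, with median log2 folds of 0.59 and 0.37.

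Most called regions lay over listed peaks. Of the 292 regions called higher, 217 overlapped a 5' UTR peak in at least 2 resistant libraries, and 73 of these overlapped none in a sensitive library. For 77 there was a peak in all 6 libraries, and for 26 in none. Of all 2076 5' UTR regions, 1139 overlapped a peak in at least 2 libraries of the higher line. A peak in all 6 libraries lay over 472, of which 16.3% were called higher. For a peak in 2 or 3 resistant and 0 sensitive libraries these values were 225 and 32.4%. For a peak in no library they were 512 and 5.08%, and 14.1% of all 2076 regions were called higher. Of the 44 called lower, 34 overlapped a peak in at least 2 sensitive libraries. The 512 5' UTR regions over no 5' UTR peak of any library had a median fold of 1.61 and a median deposited p of 0.184. One of them was MIF, a cytokine gene, with a fold of 15 over 59 bases (p = 0.119 in the authors' deposited table). Where a gene's 5' UTR was called higher and another of its regions was compared, that other region was called higher too in 32 of 97 genes (33.0%), against 66 of 514 genes (12.8%) whose 5' UTR was not called. Of the 292 regions called higher, 61 shared bases with a region of another class, so the regions of a gene need not be separate stretches.

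The 10 genes with the largest called folds, among regions over a peak in at least 2 resistant libraries, mostly had no sensitive 5' UTR peak. PABPC4, described with the translation factors, and FKBP8 had peaks in all 6 libraries. PDGFB, a ligand of the PDGF receptors, had a fold of 6.73 in the authors' deposited table (chromosome 22, 39640039 to 39640218; p = 0.00447). Its 5' UTR peak had folds of 14 in resistant 2 and 16.2 in resistant 3 and was not listed in resistant 1 or any sensitive library. Its 2 rows of other classes had a median of 0.785 and were not called. QSER1 had the same 14 and 16.2 in the same libraries and a fold of 3.29 (p = 0.0170 in the authors' deposited table). CDK2AP1, whose product binds the kinase CDK2, had folds of 6.55, 6.98 and 5.51 in the resistant libraries alone and 4.17 in the authors' deposited table (chromosome 12, 123756215 to 123756569; p = 0.000417). NEBL, which encodes the actin-binding protein nebulette, had 10.3, 5.58 and 13.9, again in resistant libraries alone, and 2.99 (p = 0.00166 in the authors' deposited table). These 2 genes were thus listed in all 3 resistant libraries and in no sensitive one.

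Others of this group had a 5' UTR peak in 2 resistant libraries and 0 sensitive ones. RANBP9, a scaffold of a ubiquitin ligase complex, had 28.9 and 23.2 in resistant 1 and 3 and a fold of 2.99 in the authors' deposited table (p = 0.00933). The RANBP9 region overlapped a peak of some class in 1 sensitive library. PMEPA1, an inhibitor of TGF-beta signalling, had 17.9 and 20.9 in resistant 1 and 3 and 2.68 (p = 0.0355 in the authors' deposited table). In the authors' deposited table the nuclear receptor gene NR2C2 (p = 0.0324) and the coactivator gene ZMIZ2 (p = 0.00407) both stood at 2.66. FKBP8, an anchor of BCL2 at mitochondria, differed from the rest: it had a peak in all 6 libraries, at 3.56 to 5.71 in resistant and 4.13 to 5.75 in sensitive cells, and 1 of its 7 rows was called, at 2.95 (p = 0.0427 in the authors' deposited table).

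The 10 genes with the lowest called folds, among regions over a peak in at least 2 sensitive libraries, had values from 0.460 to 0.620 in the authors' deposited table. MBP, known as myelin basic protein, had 0.460 (p = 0.0407 in the authors' deposited table), with 7 of its 13 rows called, and the G protein chaperone gene RIC8A 0.480 (p = 0.0138). The mitotic checkpoint kinase gene BUB1B had 0.602 in the authors' deposited table (p = 0.00155). Its 5' UTR peak had folds of 5.10 in sensitive 1 and 2.58 in sensitive 3 and was listed in no resistant library. STARD3, a cholesterol transfer gene beside ERBB2, had peaks of 4.72, 3.74 and 9.23 in sensitive cells and 3.33 in resistant 1, and a fold of 0.590 (p = 0.0479 in the authors' deposited table). The deacetylase gene SIRT7 had 4.37, 3.36 and 3.35 in sensitive cells and 2.36 in resistant 3, and 0.611 (p = 0.000832 in the authors' deposited table). In the genes just described, a 5' UTR peak over the called region was listed in more sensitive than resistant libraries, on which the rule had chosen them. The MBP region overlapped a peak of some class in all 3 libraries of each line. RPRD1A, FAM111A, THSD4, SYNE2 and CTC-349C3.1 were the others. FAM111A differed, with a 5' UTR peak over its called region in all 3 libraries of each line. Its folds were 3.60, 4.05 and 2.79 in resistant and 2.95, 3.45 and 13.5 in sensitive libraries. Of 11 genes called lower among those chosen for naming, 5 stayed so after adjustment of the p; division by the median only lowers folds and cannot end such a call.

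**Figure D5:**
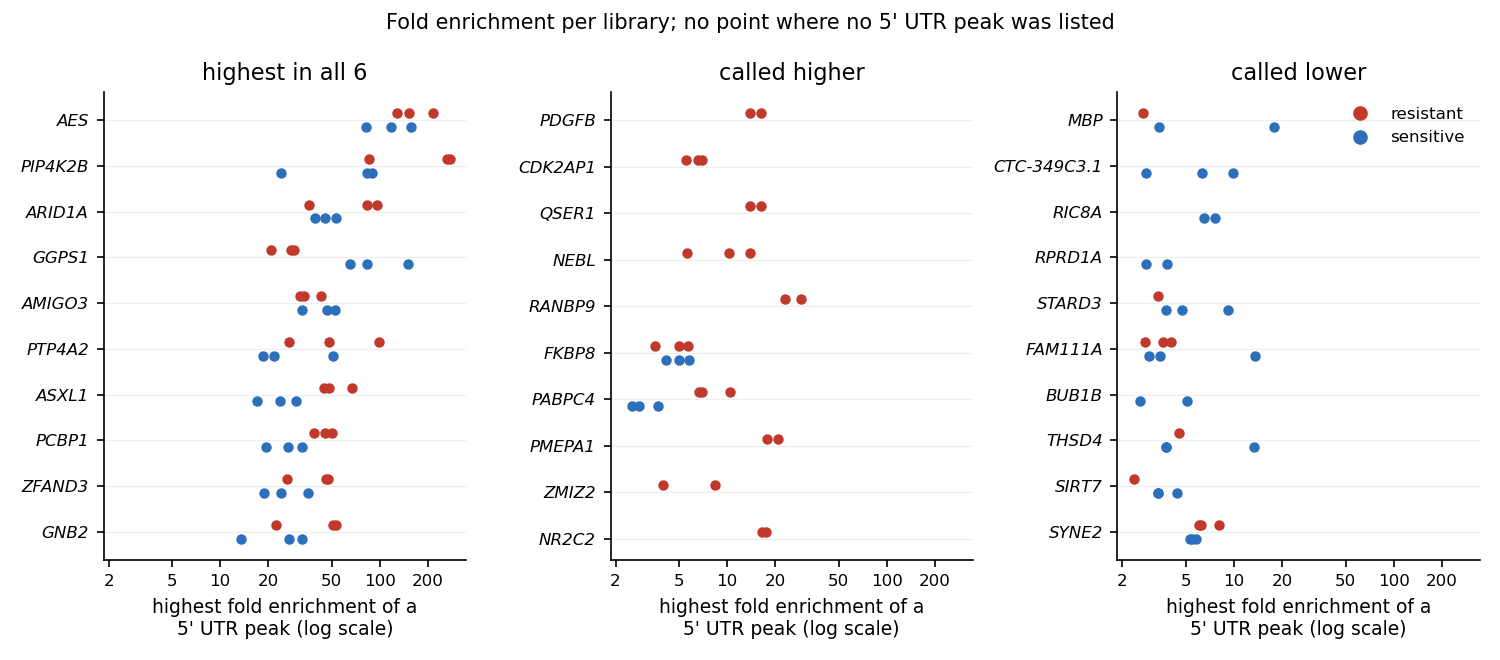
Highest fold enrichment of a 5' UTR peak of each gene in each library (log scale; red resistant, blue sensitive, no point where none was listed), for the 10 genes highest in all 6 libraries and, for each direction, the 10 whose called fold was furthest from 1. PABPC4 at 6.65 to 10.5 against 2.53 to 3.69 is separated with peaks in all 6 libraries, while PDGFB has points in 2 resistant libraries only.

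Of 8 translation factor genes with a 5' UTR region compared, 4 were called higher and 0 lower, PABPC1, PABPC4, PAIP1 and EEF1D, where 15.4% and 2.48% of all 1050 genes were. PABPC4 and PABPC1, whose products bind the poly(A) tail, both had a 5' UTR peak in all 6 libraries. PABPC4 had folds of 7.01, 6.65 and 10.5 in resistant and 2.53, 2.81 and 3.69 in sensitive libraries. PABPC1 had 3.81, 3.06 and 3.61 against 1.96, 2.24 and 1.44. In both genes every resistant value lay above every sensitive one. In the authors' deposited table all 7 rows of PABPC4 were called, at a median of 1.71 and at most 2.89 (chromosome 1, 40042065 to 40042423, p = 2.51e-13). All 10 rows of PABPC1 were called, at a median of 1.63, and the row with the smallest p had 1.67 (p = 3.98e-57 in the authors' deposited table). The genes are related in sequence, and how reads that fit both were assigned is not given in the sources used here. PAIP1, which binds PABPC1, had 3.94, 2.73 and 3.24 in the resistant libraries and no sensitive peak, and a fold of 2.51 (p = 4.27e-07 in the authors' deposited table). EEF1D, an elongation factor subunit, had 1 of 11 rows called, and its lines overlapped, at 11.0, 26.5 and 13.9 against 7.08, 26.6 and 20.3. After division by the median, 2 of the 4 genes stayed called.

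Cell cycle genes were called higher in 6 of 9 cases and lower in 1, where 15.4% and 2.48% of all 1050 genes were. CCNI, a cyclin of uncertain role, had 1.69 in the authors' deposited table (p = 2.00e-40), with all 5 rows called, but its folds overlapped, at 4.70, 3.68 and 3.43 against 2.73, 2.96 and 4.22. CDK16, a cyclin-dependent kinase gene, had 3.52, 3.07 and 1.99 in resistant cells and 2.29 in sensitive 2, and 2.13 (p = 1.02e-05 in the authors' deposited table). Its 6 rows of other classes were all called higher too, and rows stand once per isoform. CDKN2C, an inhibitor of CDK4 and CDK6, had 2.04 (p = 0.00631 in the authors' deposited table), whereas 3 of its 4 rows of other classes were called lower. CDK2AP1, above, RB1, the retinoblastoma gene, at 2.27 (p = 0.00661 in the authors' deposited table), and the replication licensing gene CDT1 at 1.91 (p = 0.02) made up the rest. RB1 had a peak over this region in 1 resistant library, CDT1 in none. CDK9 stood at 0.476 in the authors' deposited table (p = 0.0257) and was called lower, over a peak of 1 sensitive library. After division by the median, 5 of the 9 genes were called higher and 1 lower, and of all 1050 genes 83 and 70.

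Luminal and hormone-related transcription factor genes were called higher in 6 of 14 cases and lower in 0, again against 15.4% and 2.48% of all 1050 genes. TFAP2A, an AP-2 factor, had 1.80 (p = 2.29e-10 in the authors' deposited table) and 7 of its 12 rows of other classes called higher as well. The 5' UTR region shared bases with a region of another class, so these need not be separate stretches. TFAP2A had a 5' UTR peak in 1 library, resistant 3. The related gene TFAP2C had 1.66 (p = 0.00468 in the authors' deposited table). The forkhead gene FOXP4 had 1.58 (p = 5.13e-07) in the authors' deposited table and overlapping folds per library of 28.9, 8.09 and 15.1 against 17.0, 23.7 and 10.1. The nuclear receptor genes were ESRRA at 2.91 (p = 0.00389 in the authors' deposited table), NR2F6 at 1.77 (p = 0.0355) and THRA at 1.73 (p = 0.0240). After division by the median, 1 of the 14 genes was called higher, and of all 1050 genes 83. After adjustment of the p, 4 were, and of all genes 101.

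The remaining groups stand against the same 15.4% called higher and 2.48% called lower over all genes. Of 19 ubiquitin genes, 5 were called higher, FBXO45, FBXW7, RNF11, UBE2R2 and USP32, and 0 lower. In the PI3K, AKT and mTOR pathway, downstream of ERBB2, 3 of 10 genes were called higher and 0 lower: FOXO3, GSK3A and PHLPP1. After division by the median 1 was called higher, PHLPP1, and MAPKAP1 lower, and after adjustment of the p GSK3A alone was called. GSK3A, a kinase inhibited by AKT, had 9.03, 8.57 and 10.7 in resistant cells and 2.62 in sensitive 2, and 1.87 in the authors' deposited table (p = 2.82e-06). PHLPP1, a phosphatase of AKT, stood at 5.35 in the authors' deposited table (p = 0.0479), though its 5' UTR held no listed peak. Of 6 secreted growth factor genes, PDGFB and PDGFC were called higher, the latter at 3.20 in the authors' deposited table (p = 0.0355). A 5' UTR peak of PDGFC was listed in resistant 1 alone.

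Of 21 chromatin regulators 2 were called higher, ASXL1 and ARID1B, the latter at 2.10 (p = 0.00141 in the authors' deposited table). ARID1B had 26.2 and 23.7 in resistant 1 and 2 and no sensitive 5' UTR peak, though its region overlapped a peak of some class in 1 sensitive library. Of 31 zinc finger genes 2 were called higher and 1 lower, and of 7 RAB genes 2 and 0. Among 9 immediate early genes FOSB alone was called (1.70, p = 0.00186 in the authors' deposited table), with 9.14, 2.09 and 4.64 in resistant libraries and none in sensitive ones. Among 5 heat shock and stress response genes, in which 5' UTR m6A has been studied, DNAJB1 alone was called, at 1.53 (p = 0.0162 in the authors' deposited table), with 4.01, 2.57 and 2.90 against 2.11 and 2.17. Of 6 splicing factors KHSRP was called, of 3 m6A genes HNRNPC, and of 11 solute carrier genes SLC25A35. FOSB, DNAJB1, KHSRP, HNRNPC and ASXL1 were no longer called after division by the median, nor were PIP4K2B and GNB2 above. No gene was called among 6 of the ERBB and RAS pathway, 5 of the BCL2 family and 3 ribosomal protein genes. DUSP1, a MAP kinase phosphatase, stood at 0.718 (p = 0.00933 in the authors' deposited table), outside the limit, and passed it after division by the median. A fold in this table can move with the abundance of the RNA as well as with its methylation, and how far the authors' method corrected for abundance is not given in the sources used here.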

How the data were processed

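MeRIP-seq peak lists of 6 pull-down libraries (3 per line) and the authors' table comparing the lines were analysed; titles gave each library's group and number. Each peak carries a fold enrichment, a linear ratio, and a p-value, which the authors computed; in the comparison the fold is a ratio of resistant over sensitive cells, also deposited with a p-value. The headers do not say whether p was adjusted. The submitters' processing notes name HISAT2. Peak caller, build, read depth and how replicates entered the comparison: not given in the sources used here. Rows stand once per isoform, so rows sharing at least 1 exonic base on a strand were also merged. Positions are printed counting from 1. Peak numbers and shares were compared by exact permutation of the 3 against 3 libraries, and classes within libraries by exact sign flips, with Benjamini-Hochberg adjustment over 27 comparisons. The design allowed for edgeR on counts, which the files do not hold. Code was tested on simulated data (Python 3.11.15, pandas 2.3.3, NumPy 2.4.6, SciPy 1.17.1, Matplotlib 3.10.9).

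Named genes are, first, the 10 per direction with the largest called fold among regions over a 5' UTR peak in at least 2 libraries of the higher line. Next come the 10 with the highest median over libraries of the highest 5' UTR fold in all 6, then the 5 per direction with the highest minimum fold among genes of 1 line only, and last up to 4 per gene list by smallest deposited p. Other members of a list, named where a count is spelled out, were chosen after their values were seen. The members, the 18 gene lists and the rules were chosen with earlier results of these data known. The result of 1 list is not reported here. RefSeq promoters were matched by symbol, current or older.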

Additional observations from a re-analysis of the deposited data

How the results depend on the processing

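Among the alternative values of the main results, 70 kept direction and side of the threshold or, for counts, stayed within 1.5 times; 31 counts moved further, 26 fell short of the threshold, 2 passed it and 1 turned. The peak excess ran from 5.71% with equal numbers of top peaks to 41.4% at a fold enrichment of at least 5, and from 16.1% to 28.4% when 1 library was left out; the share difference ran from 0.16 to 0.73 points. The folds of same-numbered libraries did not deviate together (correlations 0.048, -0.034 and -0.026 over 463 regions). Folds of peaks cannot tell whether same-numbered libraries were prepared together, so pairing stays unknown. With the replicate block the excess of 21.8% had p = 0.25 (exact sign-flip permutation test) and the share difference of 0.43 points p = 0.5. In that test 3 pairs allow no lower p than 0.25. With 5 libraries the sign-flip p cannot go below 0.0625, so every class difference missed 0.05 when 1 library was left out: the log2 fold over coding stayed at 0.24 to 0.28, over 3' UTR at 0.13 to 0.16 and over stop codon at 0.032 to 0.055, and the log2 length over coding at 0.050 to 0.092, over stop codon at -0.69 to -0.64 and over 3' UTR at 0.34 to 0.37. The fold over stop codon passed with means (0.16) and merged regions (0.13); that over 3' UTR failed with means (0.029) and at a deposited p below 1e-05 (0.066). Length against coding turned with means (-0.000559). The cause was not tested. The excess of resistant over sensitive regions of 1 line turned without resistant 1 (80 and 105) and without resistant 3 (86 and 97). Such regions ran from 80 to 235 (resistant) and 29 to 105 (sensitive) when 1 library was left out, and were 54 and 13 with all 3 libraries needed; genes ran from 72 to 100 and 19 to 30, and sensitive genes were 6 at a deposited p below 1e-05. Calls higher and lower were 171 and 26 as merged regions, 162 and 26 as genes, 95 and 8 at a fold of 2 or 0.5, 118 and 117 after division by the median and 101 and 21 for rows wholly in the 5' UTR; 18 stayed lower after adjustment and 27 where every isoform was 5' UTR. Merged regions, genes, wholly 5' UTR rows and the isoform limit leave fewer units, and the fold of 2 is a stricter limit. Of the named genes called higher, 27 of 38 stayed so after adjustment and 22 after division by the median.

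Depth is unknown, and a region not listed in a library is not shown to be unmethylated there. Rows of isoforms are not independent, and many folds recur. A peak needs expression as well as methylation, and the sequence of the peaks was not read, since no genome in the files' build was used here, and neither the m6A consensus nor m6Am was placed within them.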
